A study of Mus musculus with 12 samples.

Results

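The genes described here are 36 chaperones and stress response genes of mouse hippocampus, of 44760 genes counted in every library. The rule that picks them uses names and no measured value, but it was set with earlier results of these data known. The list of heat shock genes holds 15 of them, the cytosolic and mitochondrial chaperones with their helpers. The list of endoplasmic reticulum genes holds the other 21, the chaperones, folding enzymes and regulators of the unfolded protein response. All 36 had enough counts to be tested in each comparison. The tissue was the hippocampus of male APPswe/PS1dE9 mice on a C57BL/6 (N9B6) background. These mice carry an amyloid precursor protein with the Swedish mutation and a presenilin 1 without exon 9, and form amyloid plaques. A pump under the skin gave nicotine hydrogen tartrate, labelled as 48 mg/kg/h, or saline for 14 days. The unit of the dose is printed as labelled and could not be checked here. Mice were 7 or 18 months old, which makes 4 groups of 3 libraries. Every group carries both transgenes, and no library without them was analysed here. The promoter of the transgenes is not given in the sources used here. The labels do not say whether each library came from a separate mouse, so p-values measure the spread between these libraries, which may be technical.

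Newly made proteins fold with the help of chaperones. In the cytosol, the HSP70 proteins bind exposed stretches of a chain, J-domain proteins such as Dnajb1 and Dnaja1 hand them clients, and the HSP90 proteins finish the folding of kinases and receptors. When misfolded protein builds up there, heat shock factor 1 binds heat shock elements and raises the transcripts of Hspa1a, Hspa1b, Hspb1 and Dnajb1. In the endoplasmic reticulum, Hspa5, also called BiP, holds the same place. There, 3 sensors, encoded by Ern1, Eif2ak3 and Atf6, start the unfolded protein response: splicing of Xbp1, translation of Atf4 and release of the Atf6 transcription factor. Their targets include the chaperones and folding enzymes of the list, the degradation genes Herpud1, Sel1l and Edem1, and the proapoptotic factor Ddit3, also called CHOP. Markers of this response have been described in neurons of the hippocampus in Alzheimer's disease.

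Some of the endoplasmic reticulum genes carry a promoter sequence that the rule did not read. The list includes known targets of the unfolded protein response, so the share of carriers among them is no independent finding. The endoplasmic reticulum stress response element, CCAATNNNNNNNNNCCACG on either strand, is a site through which Atf6 and Xbp1 act together with the CCAAT-binding factor NF-Y. It was sought in the 250 bases before each gene's start in RefSeq promoters (GRCm38.p6). Such a promoter was found for 30 of the 36 members, leaving out Hsp90aa1, Hsp90ab1, Hspa8, Cryab, Manf and Hyou1. The element stood before 7 of 19 endoplasmic reticulum genes (36.8%), before 0 of 11 heat shock genes, and before 0.130% of all 27025 genes with a promoter. The windows below carry it, with 5 bases on each side. Capitals mark the CCAAT and CCACG blocks that define the element, and each window is read on the strand where the CCAAT comes first.
Hspa5, chr2:34772020-34772048, plus strand: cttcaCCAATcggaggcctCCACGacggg
Calr, chr8:84847070-84847098, plus strand: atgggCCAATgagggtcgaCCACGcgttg
Hsp90b1, chr10:86705633-86705661, minus strand: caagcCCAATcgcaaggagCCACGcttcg
Hsp90b1, chr10:86705528-86705556, plus strand: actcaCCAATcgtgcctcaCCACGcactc
Canx, chr11:50325795-50325823, minus strand: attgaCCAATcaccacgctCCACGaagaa
Pdia6, chr12:17266486-17266514, plus strand: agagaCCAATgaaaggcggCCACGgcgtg
Dnajc3, chr14:118937822-118937850, plus strand: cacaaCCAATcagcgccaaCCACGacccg
Creld2, chr15:88819515-88819543, minus strand: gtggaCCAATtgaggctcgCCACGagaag

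The element lay nearest the start in Hspa5, where it began 65 bases before it, and farthest in Hsp90b1, where the outer of its 2 copies began 212 bases before. A CCAAT box alone stood in 17 of these 19 promoters (89.5%), in 5 of 11 heat shock promoters (45.5%) and in 37.5% of all genes. Every stress response element holds a CCAAT box, so these counts overlap. The whole window of Canx is shown because its transcript rose with age in both treatments, and that of Creld2 because its element lies on the strand opposite to the gene. Each runs along the gene's own strand and ends at the base before the start, with the blocks in capitals.
Canx promoter, chr11:50325674-50325923, minus strand: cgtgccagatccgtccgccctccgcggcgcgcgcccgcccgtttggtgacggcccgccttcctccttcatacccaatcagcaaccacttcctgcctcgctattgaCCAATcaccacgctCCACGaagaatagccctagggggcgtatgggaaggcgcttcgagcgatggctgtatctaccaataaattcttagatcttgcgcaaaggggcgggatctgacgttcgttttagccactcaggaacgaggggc
Creld2 promoter, chr15:88819396-88819645, plus strand: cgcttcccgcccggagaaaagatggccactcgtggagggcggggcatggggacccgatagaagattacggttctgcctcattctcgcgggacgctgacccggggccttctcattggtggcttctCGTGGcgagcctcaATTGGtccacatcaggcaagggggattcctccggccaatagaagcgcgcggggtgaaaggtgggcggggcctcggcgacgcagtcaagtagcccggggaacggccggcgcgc

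A heat shock element, taken as at least 3 units of GAA or TTC that alternate and stand 2 bases apart, was found before 2 of 11 heat shock genes, 0 of 19 endoplasmic reticulum genes and 0.514% of all genes. Both are the same site, between Hspd1 and Hspe1, which encode the mitochondrial chaperonin and its lid and start back to back. Capitals mark the run of 4 units, with the bases between them.
Hspd1 and Hspe1, chr1:55088054-55088081, plus strand: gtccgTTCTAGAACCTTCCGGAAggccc
The Atf4 element TGATGNAA was found before 1 of 19 endoplasmic reticulum genes, Herpud1, and before 3.91% of all genes. A match describes letters and is no measure of binding. The patterns ask for exact letters, so a gene without a match may still carry an element with a changed letter.

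Libraries held 25071195 to 29245972 counts at 7 months and 21260068 to 23715015 at 18 months. Markers of hippocampal excitatory neurons summed to between 4726 and 7087 counts-per-million (CPM) in every library, with none of the 6 at 0. Other tissue was present in a few libraries: 6 choroid plexus markers summed to 6127 CPM in 7-month nicotine library 1, to 1612 in 7-month saline library 3 and to 1506 in 18-month nicotine library 1, against 20.2 to 438 in the other 9. The 4 pituitary markers summed to 174 CPM in 7-month nicotine library 1 and to 0.373 to 3.06 elsewhere. The share of counts on transcripts longer than 5000 nt was 30.4% in 7-month saline library 2. It was 21.4 to 22.3% in the remaining libraries of that age, and at least 34.2% in each library of 18 months. The nuclear RNA Malat1 was at 273 to 374 CPM, unscaled, at 7 months and 5071 to 6326 at 18 months. Each age was deposited as its own table, so age and how a table was made cannot be told apart. In tissue RNA, fewer cells of a type and less RNA per cell cannot be told apart either. All CPM except that of Malat1 are scaled over the 12 libraries by the TMM method.

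The cytosolic chaperones were the most abundant members. Per kilobase of transcript, Hsp90ab1, the constitutive HSP90, stood first at a mean level of 829 CPM per kb in 7-month saline, followed by Hspa8, the constitutive HSP70, at 703. Hsp90aa1, the inducible HSP90, came next at 259 CPM per kb, with the endoplasmic reticulum lectin chaperone Calr at 227 and the reticulum's own HSP90, Hsp90b1, at 140.4. Some stress-inducible genes were near the other end of the order, though not all: Dnajb1 stood at 22.1 CPM per kb. Hspa1b stood at 6.13 CPM per kb, the HSP70 cofactor Bag3 at 5.96, Hspa1a at 5.19 and the degradation gene Edem1 at 3.97. Trib3, a pseudokinase induced by Ddit3, was lowest at 0.249 CPM per kb, and its lowest count in any library was 7. At 18 months in saline Hsp90ab1 and Hspa8 were still first and second, at 683 and 346 CPM per kb, and Trib3 was still last, at 0.252.

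All members together took 8156 to 9969 CPM at 7 months and 6081 to 6616 at 18 months. Their order followed libraries as well as groups. In 7-month nicotine, library 1 was the highest of the 3 in 18 of 21 endoplasmic reticulum genes and in 13 of 15 heat shock genes, and library 2 was the lowest in 20 of 21 endoplasmic reticulum genes. In 18-month nicotine, library 1 was the highest in 17 of 21 endoplasmic reticulum genes and in 10 of 15 heat shock genes. Both of these libraries numbered 1 also held the choroid plexus markers named above, and the part of that tissue in these levels was not tested. In 7-month saline, library 3, with 1612 CPM of those markers, was the lowest of its group in 8 of 21 endoplasmic reticulum genes and in 7 of 15 heat shock genes. Library 2 of that group, with 259 CPM of them, was the lowest in 9 of 21 and in 8 of 15. Library 1, with 126 CPM, was the lowest in 4 of 21 and in 0 of 15.

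**Figure D1:**
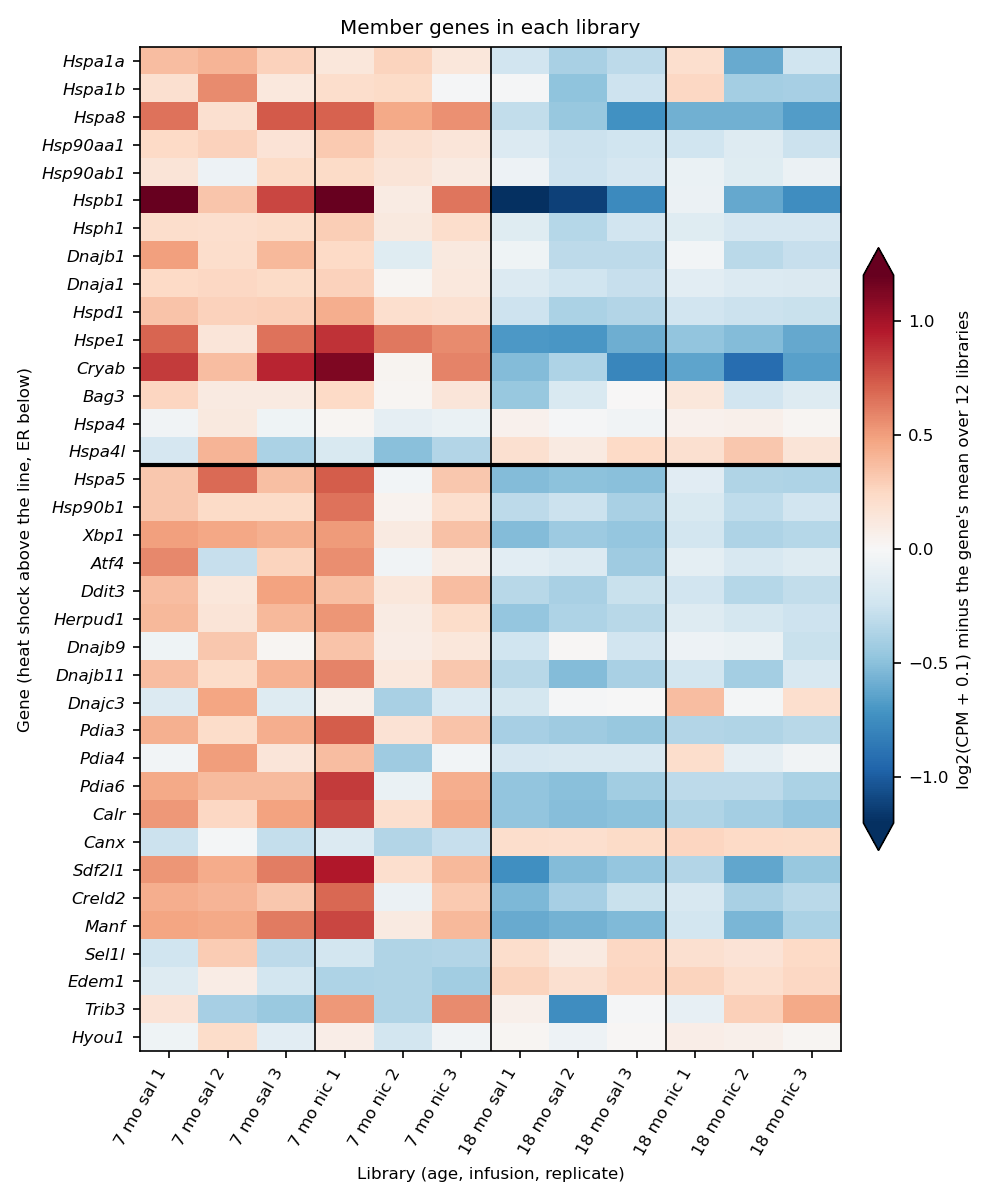
Level of each of the 36 members (vertical) in each of the 12 libraries (horizontal), as log2(CPM + 0.1) minus the gene's mean over the 12 libraries. Most members are above their mean at 7 months and below it at 18 months, while Canx runs the other way, as do Edem1, Sel1l and Hspa4l apart from 7-month saline library 2, and within 7-month nicotine library 1 stands above library 2.

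Some members share reads with near-identical copies, and 10 of the 36 have a transcript elsewhere with at least 95% identity over 200 nt. For Hspa8 (chr9:40800984-40810087) the processed pseudogene Gm15459 (chr5:5781615-5783555, minus strand) matches at 99.74% over 1941 nt. Gm15459 was counted at 588, 657 and 279 CPM in 7-month saline and at 570.3, 529 and 559.6 in 7-month nicotine. At 18 months it stood at 223, 204 and 380.2 CPM in saline and at 434, 412 and 403 in nicotine. Its share of the reads of the pair thus ran from 12.7% in 7-month saline library 3 to 35.9% in 18-month nicotine library 1. At 18 months the share was 19.1 and 19.5% in saline libraries 1 and 2, but 35.3% in saline library 3 and 34.7 to 35.9% in all 3 nicotine libraries. The authors' counting could have placed such reads at either locus, so Hspa8 is also given with its pseudogenes added.

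**Figure D2:**
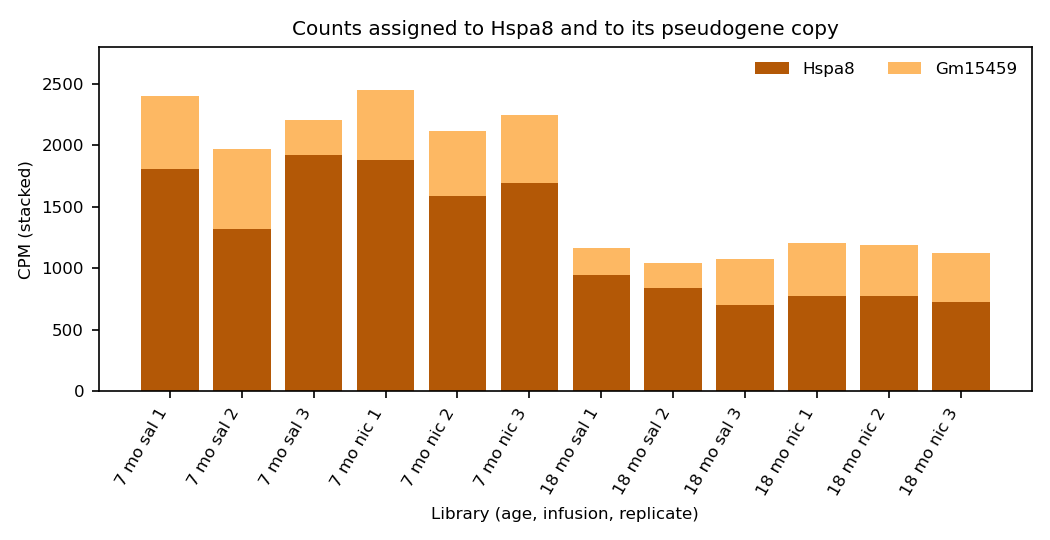
CPM of Hspa8 and of its processed pseudogene Gm15459, stacked (vertical), in each of the 12 libraries (horizontal). The pseudogene's part of the bar is 19.1 and 19.5% in 18-month saline libraries 1 and 2 and 34.7 to 35.9% in the 18-month nicotine libraries.

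The other copies were smaller or symmetric. Hspa1a (chr17:34969190-34972156) and Hspa1b (chr17:34956436-34959238), the heat-inducible HSP70 pair, match each other at 99.23% over 2201 nt, and their separate values are uncertain. The Hsp90aa1 pseudogene Gm12346, identical at 99.47% over 2255 nt, was at 0.272 to 0.415 CPM at 7 months and at 9.32 to 11.2 at 18 months, a small part of Hsp90aa1. Dnaja1 matches Gm15542 at 99.41% over 1194 nt. Hspd1 and Hspe1, Cryab and Hspb2, and Dnaja1 and Smu1 overlap in the genome, and since the counting is not stated to use strand, reads from their overlaps cannot be told apart.

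Nicotine at 18 months changed none of the 36 members past the threshold, an adjusted p under 0.05 in edgeR's quasi-likelihood test with Benjamini-Hochberg adjustment. The background was 8 of 18196 genes, 0.0440%. DESeq2 also called 0 members. At an unadjusted p under 0.05 there were 7, all above 0, against 6.73% of all genes, of which 3.35% lay above 0. They were Hspb1, Hspa5, Herpud1, Pdia4, Pdia6, Dnajc3 and Xbp1, and their adjusted p-values ran from 0.618 upward. In 12 of 15 heat shock genes the log2 fold change was above 0, with a median of 0.06, and in 19 of 21 endoplasmic reticulum genes, with a median of 0.09, where 48.1% of all genes were above 0. Without nicotine library 1 the heat shock genes stood at 9 of 15, with a median of 0.02. The median standard error was 0.06 for heat shock genes and 0.07 for endoplasmic reticulum genes, about the size of most of these differences.

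The chaperone of the reticulum came first in that list. Hspa5 (chr2:34771970-34777547) was at 188, 192 and 190.5 CPM in 18-month saline and at 246, 211 and 209 in 18-month nicotine, so the groups did not overlap. Its log2 fold change was 0.21 (standard error 0.07), with an unadjusted p of 0.014 and an adjusted p of 0.618 in edgeR's test. Library 1 of the nicotine group carried much of it: without that library the log2 fold change was 0.13 at an unadjusted p of 0.05. Hsp90b1, its HSP90 partner, had group means of 266 ± 12.5 CPM in saline and 281 ± 12.2 in nicotine (SD, n = 3), which overlapped.

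Among the folding enzymes, Pdia6, a disulfide isomerase that also acts on the Ern1 sensor, was at 74.4, 73.1 and 77.3 CPM in saline and at 83.4, 83.3 and 79.6 in nicotine. The groups did not overlap, and the log2 fold change was 0.12 (standard error 0.05), adjusted p = 0.686 in edgeR's test. Pdia4, another isomerase, was at 41.7, 42.2 and 42.2 CPM in saline and at 55.6, 44.6 and 46.9 in nicotine. The difference was 0.21 (standard error 0.08) on the log2 scale and fell to 0.11 without nicotine library 1. Pdia3, the isomerase that works with the lectin chaperones, was at 132, 129.6 and 127 CPM in saline and at 136, 136 and 138 in nicotine. Its groups were apart by a log2 fold change of 0.07 (standard error 0.04). Calr, Pdia3's lectin partner, was likewise apart with means of 263 ± 3.29 and 279 ± 10.5 CPM (SD, n = 3), while Canx, the membrane-bound lectin, overlapped at 371 ± 3.74 and 377 ± 4.25.

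The regulators moved little. Xbp1 (chr11:5520659-5525893) was at 44.1, 46.9 and 46.0 CPM in 18-month saline and at 54.4, 49.1 and 50.1 in 18-month nicotine. The log2 fold change was 0.15 (standard error 0.06), with an adjusted p of 0.718 in edgeR's test, and 0.11 without nicotine library 1. These are counts per gene and do not separate spliced from unspliced Xbp1. Atf4 was at 102, 98.9 and 82.9 CPM in saline and at 103, 97.4 and 99.8 in nicotine, a log2 fold change of 0.06 (standard error 0.08). Ddit3 was at 19.0, 18.2 and 19.9 CPM in saline and at 20.3, 18.7 and 19.5 in nicotine, a log2 fold change of 0.02 (standard error 0.07). For these last 2, the branch that runs through Eif2ak3, the groups overlapped.

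Of the degradation genes, Herpud1, a membrane protein of the ubiquitin ligase complex that clears misfolded proteins, was at 30.6, 32.6 and 33.5 CPM in saline and at 38.0, 36.6 and 35.5 in nicotine. The groups did not overlap, and the log2 fold change was 0.17 (standard error 0.06), adjusted p = 0.667 in edgeR's test. Sel1l, the adaptor of that ligase, and Edem1, which passes misfolded glycoproteins on, had nearly equal group means of 178 and 179 CPM and of 29.1 and 29.1 CPM. Groups that did not overlap, nicotine being higher, were counted for 8 endoplasmic reticulum genes: Calr, Herpud1, Hspa5, Hyou1, Pdia3, Pdia4, Pdia6 and Xbp1. Over all genes tested, 6.62% had such groups with nicotine higher. The 8 include Hyou1, a large HSP70-like chaperone of the reticulum, with means of only 125 ± 4.09 and 131 ± 2.46 CPM (SD, n = 3).

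The number of small p-values among the endoplasmic reticulum genes moved with the library left out and with the fit, as did the number over all genes. It was 6 of 21 in edgeR's fit on the 6 libraries of that age. DESeq2 gave 3, a replicate block 3, length and GC offsets 7, and 1 fit over all 12 libraries 0. Over all genes edgeR's fit gave 1225 of 18196. The 4 alternatives gave 794 of 18196, 1056 of 18196, 1074 of 16248 and 505 of 19171, in the same order. The next counts are of the endoplasmic reticulum genes again. Without nicotine library 1 it was 1, where the median log2 fold change was 0.05 and 18 genes were above 0. Without saline library 1 it was also 1, at a median of 0.08. Over all genes these 2 fits gave 934 of 18564 and 1240 of 18614. Leaving out nicotine library 2, saline library 2, saline library 3 or nicotine library 3 gave 7, 5, 4 and 4. Over all genes these gave 1653 of 18587, 1091 of 18584, 1298 of 18535 and 956 of 18664. Nicotine library 1 held 1506 CPM of choroid plexus markers, with none of the 6 markers at 0, against 23.7 and 27.6 in the other nicotine libraries and 20.2 to 89.7 in the saline libraries. The part of that tissue in these values was not tested.

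Among the heat shock genes at 18 months, Hspb1 (chr5:135887919-135889563), a small heat shock protein, differed most. It was at 1.83, 2.25 and 2.90 CPM in saline and at 4.75, 3.22 and 2.93 in nicotine, groups that did not overlap but lay close. The log2 fold change was 0.63 (standard error 0.24), unadjusted p = 0.027 and adjusted p = 0.684 in edgeR's test. Without nicotine library 1 it was 0.39. Cryab (chr9:50751325-50756636), the small heat shock protein most abundant in oligodendrocytes and astrocytes, leaned the other way. It was at 46.8, 51.9 and 38.9 CPM in saline and at 43.3, 35.6 and 42.7 in nicotine, a log2 fold change of -0.19 (standard error 0.11), and its groups overlapped.

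The inducible HSP70 genes were near their saline levels. Hspa1a was at 10.2, 9.18 and 9.65 CPM in 18-month saline and at 13.9, 7.88 and 10.2 in nicotine, a log2 fold change of 0.12 (standard error 0.18). Hspa1b was at 13.7, 9.90 and 11.6 CPM in saline and at 16.5, 10.4 and 10.5 in nicotine, a log2 fold change of 0.08 (standard error 0.19). In both, library 1 of the nicotine group was the highest of the 6, and without it the differences turned to -0.12 and -0.18. With the pair's counts added, the log2 fold change was 0.10 (standard error 0.17), adjusted p = 0.958 in edgeR's test.

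Hspa8 was at 943, 843 and 698 CPM in 18-month saline and at 774, 775 and 723 in nicotine, a log2 fold change of -0.14 (standard error 0.10). This direction turned when the pseudogenes were added. Hspa8 and Gm15459 together were at 1166, 1047 and 1078 CPM in saline and at 1208, 1188 and 1126 in nicotine. With all pseudogene copies added the log2 fold change was 0.08 (standard error 0.06), adjusted p = 0.873 in edgeR's test. Hspd1 and Hspe1, the mitochondrial chaperonin pair, were at 115 ± 5.51 and 34.9 ± 1.50 CPM in saline and at 122 ± 1.55 and 37.9 ± 1.80 in nicotine (SD, n = 3), with overlapping groups. The remaining heat shock genes, Hsp90aa1, Hsp90ab1, Hsph1, Dnajb1, Dnaja1, Bag3, Hspa4 and Hspa4l, all overlapped between the groups.

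The rest of the pathway, 148 genes in 13 lists that hold none of the 36, gave the same count. At 18 months 0 of 144 tested genes passed by edgeR's or DESeq2's test. In edgeR's test 10 had an unadjusted p under 0.05, against the 6.73% of all genes. The smallest adjusted p was 0.476, that of Ddit4, an inhibitor of mTORC1 induced by Atf4, with a log2 fold change of 0.23 (standard error 0.06). The sensor Atf6 stood at a log2 fold change of 0.15, and Dnajc10, a reductase of the reticulum, at -0.21.

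**Figure D3:**
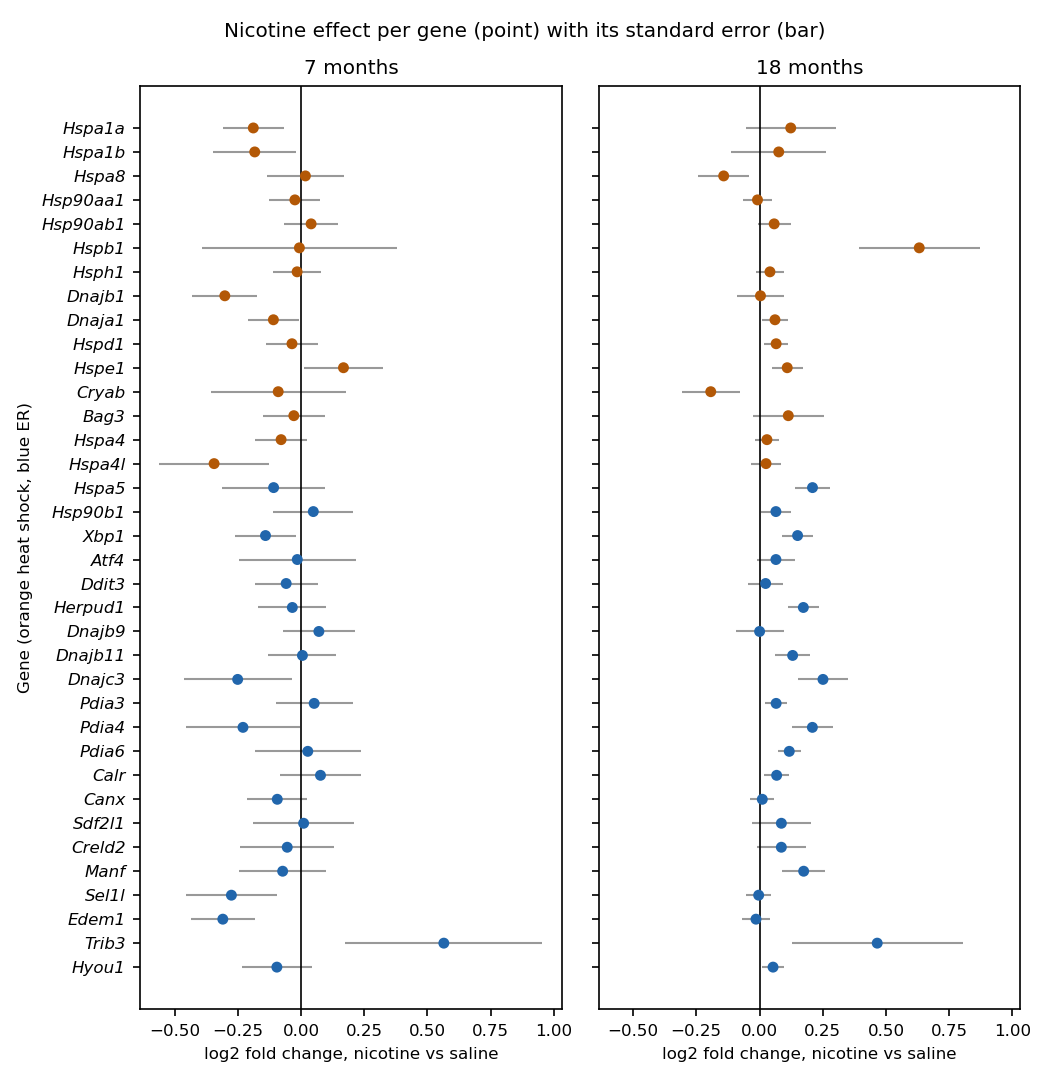
Nicotine against saline as log2 fold change for each of the 36 members at 7 and at 18 months, with bars of 1 standard error. At 18 months the standard errors are smaller than at 7 months (median 0.07 against 0.16 for endoplasmic reticulum genes) and most points lie a little above 0, while at 7 months points lie on both sides.

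At 7 months nicotine changed 0 of 36 members by edgeR's quasi-likelihood test and 0 by DESeq2, with 0.0114% of 17596 genes called by edgeR. Only Dnajb1 and Edem1 had an unadjusted p under 0.05, both below 0, where 6.50% of all genes had one, 3.93% below 0. The log2 fold change was above 0 in 11 of 36 members, in 3 of 15 heat shock and 8 of 21 endoplasmic reticulum genes, and in 48.7% of all genes. The heat shock count was 8 of 15 without nicotine library 2, 6 without nicotine library 3, and 7 with offsets for transcript length and GC content in the fit. The medians were -0.04 for heat shock and -0.05 for endoplasmic reticulum genes, with median standard errors of 0.12 and 0.16. The smallest adjusted p of any member was 0.656.

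Dnajb1, the J-domain partner of the inducible HSP70s, was at 72.2, 59.3 and 67.0 CPM in 7-month saline and at 60.5, 46.4 and 55.6 in nicotine. The log2 fold change was -0.30 (standard error 0.13), adjusted p = 0.656 in edgeR's test, and the groups overlapped. Hspa1a was at 15.6, 16.0 and 14.6 CPM in saline and at 13.3, 14.5 and 13.2 in nicotine. These groups did not overlap, at a log2 fold change of -0.19 (standard error 0.12). Hspa1b, its near copy, was at 15.9, 20.6 and 15.1 CPM in saline and at 16.0, 16.3 and 13.7 in nicotine, which overlapped, and the added pair gave -0.19 (standard error 0.13). Hspa1a and Edem1 were the members whose nicotine libraries were all lower, a pattern found in 8.37% of all genes.

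Several 7-month differences rested on saline library 2, the library with more long transcripts. Edem1 (chr6:108828641-108859356) was at 22.1, 26.1 and 21.1 CPM in saline and at 19.0, 19.1 and 18.5 in nicotine, a log2 fold change of -0.31 (standard error 0.13) that was -0.20 without that library. Sel1l was at 132, 192 and 126 CPM in saline and at 134, 121 and 122 in nicotine, so that library 2 alone was apart. Its log2 fold change of -0.28 (standard error 0.18) became -0.04 without it. Dnajc3, a J-domain protein that restrains Eif2ak3, showed the same with 51.3, 80.3 and 51.8 CPM in saline and 60.7, 44.0 and 51.4 in nicotine, and its -0.25 (standard error 0.21) became 0.02. Hspa4l, an HSP110-type exchange factor, was at 70.5, 108 and 62.4 CPM in saline and at 71.3, 57.4 and 63.5 in nicotine, and its -0.34 (standard error 0.22) became -0.05. The rank correlation of log2 fold change with transcript length in this comparison was -0.55 across the 36 members and -0.46 across 16167 genes, which share libraries and are not independent.

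Chaperones and regulators at 7 months varied more between libraries of a group than between the groups. Hspa5 was at 337, 432 and 347 CPM in saline and at 445, 263 and 339 in nicotine, a log2 fold change of -0.11 (standard error 0.20). Xbp1 was at 89.4, 87.3 and 85.0 CPM in saline and at 90.4, 68.4 and 80.9 in nicotine, -0.14 (standard error 0.12). Atf4 was at 166, 91.6 and 134 CPM in saline and at 163, 108 and 119 in nicotine, -0.01 (standard error 0.23). In each of these 3 the highest and the lowest of the 6 libraries belonged to the same group. Ddit3 was at 30.9, 26.3 and 33.3 CPM in saline and at 30.6, 26.2 and 30.8 in nicotine, a log2 fold change of -0.06 (standard error 0.12). Hspa8 was at 1810.0, 1316 and 1924 CPM in saline and at 1878, 1584 and 1690.1 in nicotine, a log2 fold change of 0.02 (standard error 0.15), and 0.04 with its pseudogenes added. Trib3 was at 0.678, 0.427 and 0.411 CPM in saline and at 0.900, 0.441 and 0.930 in nicotine, 0.56 (standard error 0.39). At so low a count the Trib3 groups could not be told apart.

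The side on which the endoplasmic reticulum genes lay at 7 months moved with the library left out. With all libraries 8 of 21 were above 0, at a median log2 fold change of -0.05. Without nicotine library 2, 14 of 21 were above 0, at a median of 0.08, and without nicotine library 1, 1 of 21, at a median of -0.21. Summed over the 21 genes, saline libraries were at 2838, 2873 and 2765 CPM and nicotine libraries at 3366, 2315 and 2689, so the nicotine group spanned the saline group on both sides. Library 1, at 3366 CPM, also had 6127 CPM of choroid plexus and 174 CPM of pituitary markers, and their part in the sum was not tested. The 148 other pathway genes gave 0 of 146 past the threshold in edgeR's and DESeq2's tests and 0 with an unadjusted p under 0.05 in edgeR's.

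**Figure D4:**
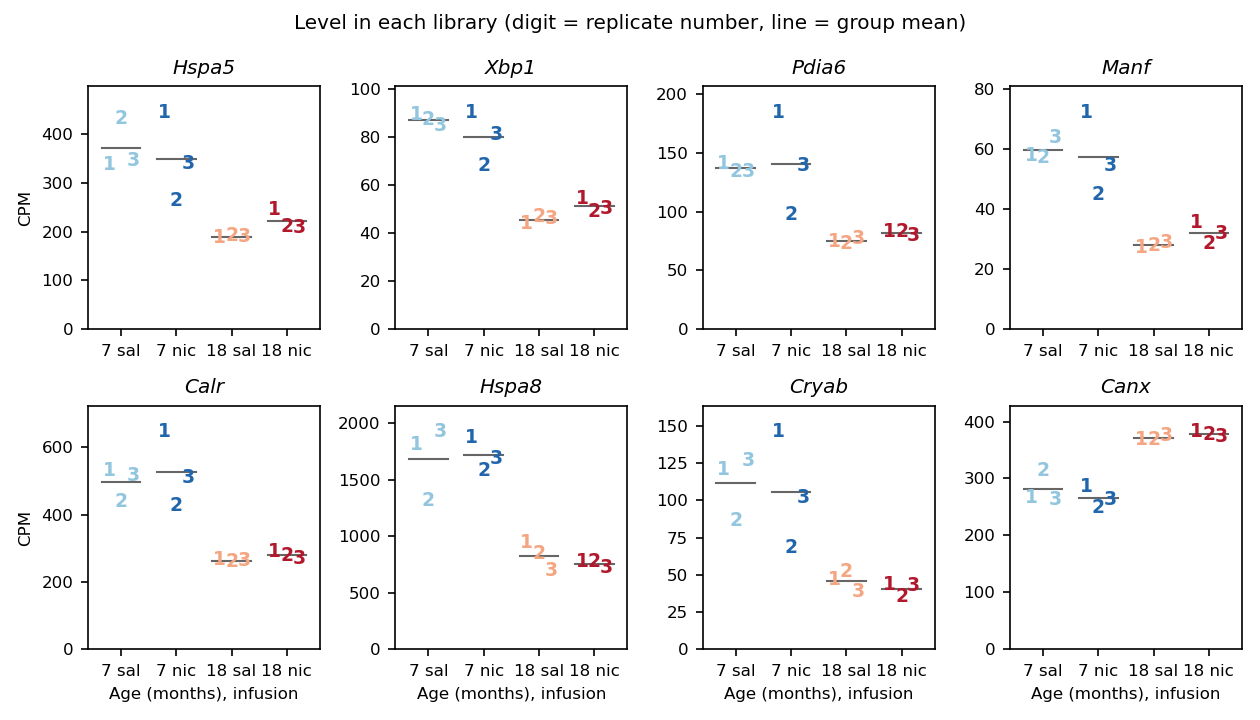
CPM (vertical) of 8 members in the 4 groups (horizontal), where each digit is a library's number and each line a group mean. For Hspa5 the 7-month nicotine libraries span 263 to 445, wider than the saline libraries, and both 18-month groups lie below every 7-month library, while Canx lies higher at 18 months.

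Averaged over the ages, 0 of 36 members passed in edgeR's or DESeq2's test, with 0.0365% of 19171 genes called by edgeR. Edem1 alone had an unadjusted p under 0.05, at a log2 fold change of -0.15 (standard error 0.06) and an adjusted p of 0.697, where 6.86% of all genes had one. The difference between the nicotine effects of the 2 ages also gave 0 of 36 by both tools, with 0.00522% of genes called by edgeR. Again Edem1 alone had an unadjusted p under 0.05, with a difference of 0.29 (standard error 0.12) and an adjusted p of 0.623, where 7.85% of all genes had one. That of Xbp1 was 0.29 (standard error 0.14), at an unadjusted p of 0.052. With offsets for length and GC content Edem1 no longer had a small p in either, at -0.04 (unadjusted p = 0.428) averaged and 0.07 (unadjusted p = 0.472) for the difference. The difference then had an unadjusted p under 0.05 for Xbp1 at 0.43, Herpud1 at 0.35, Ddit3 at 0.36 and Dnajb1 at 0.35, with adjusted p-values in edgeR's test of 0.599 or more. Over all genes in that fit with offsets, 1115 of 16938 had an unadjusted p under 0.05. So the small 18-month differences were not shown to differ from those at 7 months. Of the 148 other pathway genes, 0 passed in either comparison by either tool, and 2 and 7 had an unadjusted p under 0.05.

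The members differed most between the ages. In saline, 25 of 36 were lower at 18 than at 7 months and 2 were higher, by edgeR's quasi-likelihood test with Benjamini-Hochberg adjustment, and the median log2 fold change was -0.58. Over all 19171 genes 46.1% were called, 24.6% lower and 21.5% higher. In nicotine, 22 were lower and 4 higher, at a median of -0.41, where 59.3% of all genes were called, 29.8% lower and 29.5% higher. In both treatments 21 were lower and 2 were higher. These 2 comparisons share no library, but they come from the same fit and the same deposited tables. The share of all genes called in the same direction in both was not counted. Without 7-month saline library 2 and 7-month nicotine library 1, 24 were lower and 4 higher in saline, and 21 and 7 in nicotine. Over all 19332 genes of that fit 5778 were lower and 6191 higher in saline, and 5888 and 6133 in nicotine. In the fit on all libraries, 4720 of 19171 were lower and 4124 higher in saline, and 5709 and 5659 in nicotine. The members that passed in neither comparison were 6: Atf4, Dnajc3, Hspa4, Hyou1, Pdia4 and Trib3. These values compare separately deposited tables whose length and Malat1 shares also differ, as given above, so age and how the tables were made cannot be told apart.

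The cytosolic chaperones fell as follows. Hspa8 was at 1810.0, 1316 and 1924 CPM in 7-month saline and at 943, 843 and 698 in 18-month saline, groups far from overlapping. This was a log2 fold change of -1.02 (standard error 0.15), adjusted p = 0.000385 in edgeR's test, and in nicotine -1.18 (standard error 0.15). With the pseudogenes added these were -0.99 and -0.95. Hsp90aa1 fell by 0.45 in saline and by 0.43 in nicotine on the log2 scale (standard errors 0.08), from 850.0 ± 32.5 to 623 ± 23.1 CPM in saline (SD, n = 3). Hsp90ab1 fell less, by 0.28 (standard error 0.09) in saline, from 2089.9 ± 215 to 1720.4 ± 118 CPM, and those saline groups overlapped. Hsph1, an HSP110 exchange factor, fell by 0.45 (standard error 0.07), from 361 ± 2.90 to 265 ± 18.2 CPM, while the related Hspa4, at 228 ± 15.0 and 226 ± 7.73 CPM, did not pass.

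The J-domain partner Dnaja1 was at 294, 296 and 293 CPM in 7-month saline and at 222, 212 and 206 in 18-month saline. It fell by 0.47 (standard error 0.07), adjusted p = 0.000725 in edgeR's test, and by 0.30 in nicotine. Of the inducible genes, Hspa1a fell by 0.67 (standard error 0.16) in saline, adjusted p = 0.00638, from 15.4 ± 0.714 to 9.69 ± 0.527 CPM (SD, n = 3). In nicotine its log2 fold change was -0.36, adjusted p = 0.0759. Hspa1b gave -0.55 (standard error 0.19), adjusted p = 0.036 in edgeR's test in saline, a call lost when 7-month saline library 1 or 2, or 18-month saline library 2 or 3, was left out. In nicotine it gave -0.29, adjusted p = 0.208. Without 18-month nicotine library 1 both inducible genes passed in nicotine too, at -0.60 and -0.55. Dnajb1 fell by 0.59 (standard error 0.12) in saline and was at -0.28 in nicotine, which did not pass.

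The mitochondrial pair fell in both treatments. Hspe1, the lid, was at 89.3, 60.9 and 86.2 CPM in 7-month saline and at 34.0, 33.9 and 36.6 in 18-month saline, a log2 fold change of -1.18 (standard error 0.13), adjusted p = 0.000123 in edgeR's test. Hspd1, the barrel, was at 184, 175 and 177 CPM and at 122, 111 and 113, a smaller log2 fold change of -0.63 (standard error 0.08). In nicotine Hspe1 gave -1.23 and Hspd1 -0.53, so the lid differed more than the barrel in each treatment. The difference between the 2 genes was not tested.

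The small heat shock proteins fell in both treatments in the fit without offsets. Cryab was at 146, 68.7 and 102 CPM in 7-month nicotine and at 43.3, 35.6 and 42.7 in 18-month nicotine, a log2 fold change of -1.38 (standard error 0.24), adjusted p = 0.00043 in edgeR's test, and -1.28 in saline. Hspb1 fell by 1.99 (standard error 0.38) in saline, from 9.23 ± 3.15 to 2.33 ± 0.539 CPM (SD, n = 3), and by 1.35 (standard error 0.36) in nicotine. With length and GC offsets Cryab was at -0.72 and -0.59 in saline and nicotine and passed in both, while Hspb1 was at -1.40 in saline and lost its call in nicotine, at -0.48. Oligodendrocyte markers, which share a cell type with Cryab, summed to 4058 to 6713 CPM at 7 months and 3096 to 5504 at 18 months, with overlap. Astrocyte markers summed to 1555 to 1838 CPM at 7 months and 2247 to 2845 at 18 months, and endothelial markers to 102 to 175 and 124 to 149. Astrocyte sums were thus higher at 18 months. Median oligodendrocyte sums were lower, 4246 against 6029 CPM in saline and 3791 against 5075 in nicotine. The part of cell makeup in the differences was not tested.

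In the endoplasmic reticulum Hspa5 fell by 0.97 (standard error 0.16) in saline, adjusted p = 0.000891 in edgeR's test, from 372 ± 52.2 to 190.0 ± 1.87 CPM (SD, n = 3), and by 0.65 (standard error 0.16) in nicotine. Hsp90b1 fell by 0.58 and 0.56 (standard errors 0.13). Calr was at 532, 439 and 516 CPM in 7-month saline and at 267, 260.5 and 263 in 18-month saline, groups that were wide apart. Its log2 fold change was -0.91 (standard error 0.13), adjusted p = 0.000374 in edgeR's test, and -0.92 in nicotine. Canx (chr11:50293961-50325673), the membrane-bound relative of Calr, went the other way. It was named after its values were seen. Canx was at 266, 314 and 262 CPM in 7-month saline and at 369, 368 and 375 in 18-month saline, and rose by a log2 fold change of 0.40 (standard error 0.08), adjusted p = 0.00277 in edgeR's test. In nicotine it was at 286, 249.8 and 263 CPM and then at 382, 377 and 373, a rise of 0.50 (standard error 0.08).

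Folding enzymes and cofactors fell alongside Calr. Pdia3 was at 234, 203 and 236 CPM in 7-month saline and at 132, 129.6 and 127 in 18-month saline, a log2 fold change of -0.79 (standard error 0.12), adjusted p = 0.000554 in edgeR's test. Pdia6 fell by 0.87 (standard error 0.17) in saline, while Pdia4 at -0.42 (standard error 0.18) did not pass. Manf, a secreted factor released on stress of the reticulum, was at 57.8, 57.2 and 64.0 CPM and at 27.4, 28.1 and 28.9, a log2 fold change of -1.09 (standard error 0.15), adjusted p = 0.000304. Sdf2l1 and Dnajb11, partners of Hspa5, fell by 1.11 and 0.76, and Creld2, another secreted factor, by 0.79. In nicotine these 3 fell by 1.04, 0.63 and 0.65. Dnajb9, the J-domain protein that holds the Ern1 sensor off, passed only in nicotine, at -0.33 against -0.25 in saline, and the difference between treatments was not past the threshold for any member.

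Of the regulators, Xbp1 was at 89.4, 87.3 and 85.0 CPM in 7-month saline and at 44.1, 46.9 and 46.0 in 18-month saline. Its log2 fold change was -0.93 (standard error 0.10), adjusted p = 8.33e-05 in edgeR's test, and -0.64 (standard error 0.10) in nicotine. Ddit3 fell by 0.67 (standard error 0.10) in saline, from 30.2 ± 3.56 to 19.0 ± 0.815 CPM (SD, n = 3), and by 0.58 in nicotine. Atf4 was at -0.46 (standard error 0.19) in saline, adjusted p = 0.0692 in edgeR's test, and at -0.38 in nicotine, and Trib3, downstream of it, at 0.00 (standard error 0.39) and -0.09. Atf4 passed in saline without 7-month saline library 2, at -0.63, and without 7-month nicotine library 1, at -0.46. Among degradation genes Herpud1 fell by 0.70 (standard error 0.11) and 0.49, but Edem1 rose. Edem1 was at 19.0, 19.1 and 18.5 CPM in 7-month nicotine and at 29.7, 28.3 and 29.3 in 18-month nicotine, a rise of 0.62 (standard error 0.09), adjusted p = 0.000157 in edgeR's test, and of 0.33 in saline. Sel1l rose by 0.51 (standard error 0.13) in nicotine and stood at 0.25 in saline, which did not pass.

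Carriers of the stress response element differed in direction. In saline Hspa5, Calr, Pdia6, Creld2 and Hsp90b1, all with the element printed above, had log2 fold changes of -0.97, -0.91, -0.87, -0.79 and -0.58, and each of these 5 passed. Dnajc3 was at -0.16, which did not pass, and Canx rose by 0.40. In nicotine the same 5 passed, at -0.65, -0.92, -0.78, -0.65 and -0.56, Dnajc3 was at 0.34, which did not pass, and Canx rose by 0.50. Of all 21 endoplasmic reticulum genes, carriers included, 12 were lower in saline and 13 in nicotine. Over all genes 24.6% and 29.8% were lower. With length and GC offsets Creld2 lost its call in both treatments, at -0.30 and 0.09.

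Transcript length moved with these differences. Across the 36 members the rank correlation between length and log2 fold change was 0.69 in saline and 0.73 in nicotine, and across 16950 genes 0.45 and 0.50, all from the same libraries. The median log2 fold change of all genes in saline ran from -0.48 for transcripts up to 1000 nt and -0.46 from 1000 to 2000, through -0.24 from 2000 to 3000 and -0.00 from 3000 to 5000, to 0.37 above 5000. The members of those classes had medians of -1.18 (3 genes), -0.79 (5), -0.63 (17), -0.24 (6) and 0.20 (5). In each class the members' median was below that of all genes, and 2 of the 36 lay above their class median in saline. In nicotine 13 of the 36 did.

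**Figure D5:**
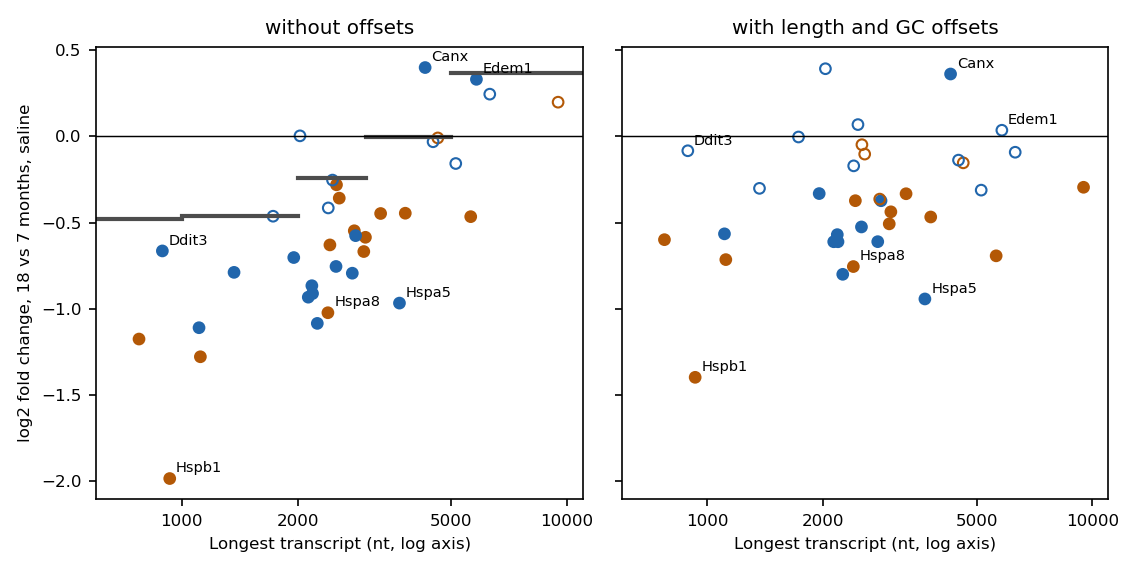
Log2 fold change of 18 against 7 months in saline (vertical) by length of the longest transcript in nt (horizontal, log axis) for the 36 members, without (left) and with (right) length and GC offsets, where filled points passed the test, orange marks heat shock and blue endoplasmic reticulum genes. On the left the members follow the dark bars, the medians of all genes per length class from -0.48 to 0.37, and lie mostly below them, and on the right 21 members are still called lower and 1 higher.

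With offsets for length and GC content in the fit, 21 members were lower and 1 higher in saline, and 16 lower and 1 higher in nicotine, where 29.5% and 39.9% of all genes were called. Over all genes 13.5% and 19.2% were called lower, and the share lower in both treatments was not counted. The same 14 genes were lower in both treatments with and without the offsets: Hspa8, Hsp90aa1, Hsph1, Dnaja1, Hspd1, Hspe1, Cryab, Hspa5, Hsp90b1, Dnajb11, Pdia3, Pdia6, Calr and Manf. In saline with offsets Hspa8 was at -0.76, Hspa5 at -0.94, Hspe1 at -0.60 and Calr at -0.61. Canx was the gene still higher, at 0.36 in saline and 0.29 in nicotine. Ddit3 lost its call, at -0.08 in saline and 0.27 in nicotine, and Edem1 lost its rise, at 0.04 and 0.11. Hspa4l, higher in nicotine without the offsets, was lower in both treatments with them, at -0.30 and -0.33. Xbp1 remained lower in saline, at -0.61, and not in nicotine, at -0.19. Hsp90ab1, at -0.05 and 0.01, no longer passed in either. In saline Bag3 and Hspa1b also lost their calls, at -0.10 and -0.36. In nicotine so did Herpud1 at 0.01, Sdf2l1 at -0.19, Dnajb9 at -0.05 and Sel1l, which had risen, at -0.07, while Hspa4 was newly called lower.

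The other pathway genes differed with age as well. In saline 77 of 146 were lower at 18 months and 11 higher by edgeR's test, and in nicotine 82 and 22, so that 60.3% and 71.2% passed, where 46.1% and 59.3% of all genes did. With length and GC offsets the counts were 46 lower and 13 higher in saline and 47 and 19 in nicotine. These were 40.4% and 45.2% of the 146, against 29.5% and 39.9% of all genes. All 8 subunits of TRiC, the cytosolic chaperonin that folds actin and tubulin, were lower in each treatment, 5 of 8 with offsets. Cct3, among them, went from 149 ± 25.1 to 84.0 ± 3.84 CPM (SD, n = 3) in saline. Of 15 HSP90 and HSP70 co-chaperones 13 were lower in saline, such as Stip1, which links the 2 chaperones, at -0.58 and the prolyl isomerase Ppid at -0.62, and 6 with offsets. Of 4 heat shock factor genes 3 were lower, Hsf1 by 0.45 and its binding protein Hsbp1 by 0.72, and 0 with offsets by edgeR's test.

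In the reticulum's lists, 13 of 17 genes of the translocon and signal peptidase, which bring proteins in and trim them, were lower in saline, led by Spcs1 at -1.29 and Sec61g at -1.44, and 11 with offsets. Of 9 sensors and proteases 2 were lower and 1 higher. The higher was Ern1, the kinase and nuclease that splices Xbp1, which rose from 5.11 ± 3.26 to 13.2 ± 1.11 CPM (SD, n = 3) in saline, a log2 fold change of 1.38, and by 2.31 in nicotine. It passed with offsets too, at 1.02 and 1.68. Without offsets Ern1 was thus higher where the counts of its substrate Xbp1 were lower. With offsets Xbp1 was lower in saline only and was not called in nicotine, at -0.19. Of 20 Atf4 and integrated stress response targets 7 were lower and 2 higher in saline, and of 19 tested degradation genes 7 and 1, shares near the 46.1% of all genes called in saline. Of 13 further oxidoreductases 7 were lower and 1 higher, and of 8 genes of the calnexin cycle 3 and 1. Among 15 J-domain proteins 8 were lower and 4 higher, among 10 mitochondrial proteostasis genes 5 and 0, among 5 tested small heat shock proteins 2 and 0, and among 6 genes of the HSP70 family 1 and 1.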

How the data were processed

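RNA of hippocampus was sequenced in 12 libraries. The authors deposited raw read counts per gene, 1 table per age (44788 and 44786 genes, 44760 of them shared). Per the submitters' processing notes, TopHat and GRCm38 were used; the counter, annotation and strand setting are not given in the sources used here. The labels' protocol describes a small RNA kit, although the counts cover messenger RNA. No column of sample values was left unused (0).

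Counts were tested with edgeR 4.0.16 in R 4.3.3 (quasi-likelihood F-test, TMM scaling, default filter on low counts, Benjamini-Hochberg adjustment over all genes tested, threshold 0.05). Nicotine was compared within each age on 6 libraries, and the averaged effect, the difference of effects and the ages were fitted on all 12 libraries. Standard errors are the log2 fold change over the root of F. Each library held at least 21260068 counts. CPM are TMM-scaled. Lengths, GC content and copies (BLAST 2.17.0, at least 95% identity over 200 nt) come from GENCODE M21, promoters from RefSeq. The scripts were tested on simulated data. Alternatives were other size factors, no filter, DESeq2 1.42.0, a replicate block, length and GC offsets (splines with 4 degrees of freedom), added copies, 1 fit over all libraries, and left-out libraries.

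The genes given per library were the 4 with the smallest p of each list in each nicotine and age comparison, and always Hspa1a, Hspa1b, Hspa8, Hspa5, Xbp1, Atf4 and Ddit3. Of other pathway lists at most 2 were named. Values of other members were added after they were seen. Members and lists were chosen with earlier results of these data known. The choice of pseudogenes to add was made after the data were seen.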

Additional observations from a re-analysis of the deposited data

How the results depend on the processing

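Counts of members past the threshold were 0 in the 4 nicotine comparisons under every alternative run. For age the count was 27 in saline and 26 in nicotine. It was 24 in each with DESeq2's size factors in edgeR, 28 and 26 without a filter, 26 and 25 with DESeq2, 24 and 24 over genes with a length, and 22 and 17 with length and GC offsets, which are fitted over fewer genes. Leaving out 1 library at a time gave 24 to 28 in saline and 24 to 29 in nicotine. The number called over all genes moved too. In saline it was 3389 lower and 2862 higher of 19552 without 7-month saline library 1. Without 7-month saline library 2 it was 5691 and 6102 of 19539. Hspa1b in saline just missed the threshold with DESeq2's size factors, at an adjusted p of 0.0501 in edgeR's test.

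Same-numbered libraries did not deviate together. The correlations of their deviations were 0.0924, -0.0554 and -0.135 at 7 months and -0.0920, -0.0741 and -0.0811 at 18 months. With 3 libraries a group, these values cannot show whether libraries were made together. Both 7-month libraries numbered 1 carry another description prefix than the rest of that age, and its meaning is not given. Without them the 7-month nicotine medians were -0.15 for heat shock genes, with 3 of 15 above 0, and -0.19 for endoplasmic reticulum genes, with 1 of 21. With the replicate block 26 members passed in saline and 27 in nicotine with age, and 0 in each nicotine comparison.

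Among the genes given per library, each taken in the comparisons for which it was named, 30 log2 fold changes turned direction under an alternative, counted per alternative, all where the gene had not passed, except Ddit3 with age in nicotine, which lost its call. Outside those, with age in nicotine and length and GC offsets, Hspa4l turned from 0.56 to -0.33 and passed both ways, and Herpud1 from -0.49 to 0.014, Creld2 from -0.65 to 0.087 and Sel1l from 0.51 to -0.072 lost their calls. With length and GC offsets these were, at 7 months, Hspa8 at -0.0076, Hspa4l at 0.036 and Hspa5 at 0.0093. Over both ages Hspa4l was at 0.026, the differences of effects were -0.061 for Dnaja1 and -0.038 for Hspa4l, and with age in nicotine Hspa1b was at 0.075, Atf4 at 0.24 and Ddit3 at 0.27. Without 7-month saline library 2 and nicotine library 1, Hspa8 was at -0.18 at 7 months, and over both ages Hspb1 was at -0.020 and Herpud1 at -0.018. Atf4 was at 0.055 without both 7-month libraries numbered 3, and Hspa8 at 0.085 at 18 months with pseudogenes added. Leaving out 1 library at a time at 7 months gave -0.12 to 0.12 for Hspa8, -0.32 to 0.060 for Hspa5, -0.21 to 0.19 for Atf4, -0.13 to 0.014 for Ddit3 and -0.38 to 0.015 for Dnajc3. At 18 months it gave -0.12 to 0.30 for Hspa1a, -0.18 to 0.20 for Hspa1b, -0.019 to 0.12 for Atf4 and -0.0051 to 0.058 for Ddit3. The cause of these turns was not tested. With 3 libraries a group and standard errors near 0.15 at 7 months, differences of that size were not detectable there.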
